A study of Mus musculus with 6 samples.

Results

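The insulin-like growth factor (IGF) axis was followed through 10 genes of mouse liver, namely the ligands Igf2 and Igf1, the receptors Igf2r and Igf1r, the binding proteins Igfbp1, Igfbp2, Igfbp3 and Igfbp4, the acid-labile subunit Igfals, and H19, the noncoding neighbour of Igf2. The genes were chosen by name, with earlier results of these data known. Each was found on the array as 1 probe, through its accession or its description. They make up 10 of the 9512 genes with a symbol among the 20868 probes of the array. Igf1r and Igf2r were identified from a description in words, because their probes carried no symbol in brackets. All 10 probes were well above background in both channels of all 6 arrays, so in all 12 channels, and none was saturated in any of them.

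RNA of 4 kinds was hybridised, all from C3H/HeNCrlBR(C3He) mice aged 39 weeks in which tumours had been initiated with diethylnitrosamine (DEN), a liver carcinogen. They were tumour from mice given DEN and then phenobarbital (PB), a tumour promoter, in the drinking water (WT tumour), liver of wild-type mice given DEN and PB (WT liver), liver of CAR-KO mice given DEN and PB (CAR-KO liver), and liver of CAR-KO mice given DEN without PB. CAR, the product of Nr1i3, is the nuclear receptor through which PB acts. The labels name the tumour without a genotype, and it is called WT tumour here on the basis of the CAR-KO liver it was set against. The direct comparisons numbered 3, each on a pair of 2-colour arrays with the dyes swapped: WT tumour over CAR-KO liver, WT liver over CAR-KO liver, and CAR-KO liver with PB over CAR-KO liver with DEN alone. The CAR-KO liver with PB was common to all 3 pairs, so the comparisons are not independent of each other. WT tumour over WT liver was obtained indirectly, from the ratio of each to CAR-KO liver. The labels give neither the number of animals behind an RNA nor whether the same extract was labelled for both arrays of a pair. The p-values therefore describe array-to-array spread, which may be purely technical.

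IGF1 and IGF2 are secreted growth factors that signal through the IGF1 receptor. In the mouse, IGF1 in the blood comes mainly from hepatocytes under the control of growth hormone, whereas Igf2 is an imprinted fetal gene whose liver expression is shut down after birth and often returns in liver tumours. The IGF2 receptor binds IGF2 without relaying a growth signal and delivers it to the lysosome, and the binding proteins hold both ligands in the circulation and around cells.

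Median signals per array lay between 186.5 and 493.5 in Cy3 and between 129.4 and 417.9 in Cy5, and array 2 of the tumour pair had a local background of 288 (Cy3) and 299 (Cy5), against 53 to 61 (Cy3) and 60 to 62 (Cy5) on the other 5 arrays. The levels of the members below are therefore set against each other only within an array. The 2 arrays of a pair correlated with r = 0.39 over all probes for WT tumour over CAR-KO liver, 0.03 for WT liver over CAR-KO liver and -0.35 for PB over DEN alone in CAR-KO liver, after turning the swapped arrays; in the last comparison the direction of a ratio rests on the labelled dyes and is not borne out between the arrays over all probes. Single genes did keep their sign across that pair, such as the muscle gene Tnnc2 at 1.98 and 1.58. The targeted gene Nr1i3 had a log2 ratio of 1.81 ± 0.16 (SE, limma adjusted p = 0.00194) for WT tumour over CAR-KO liver and of 0.79 ± 0.16 (limma adjusted p = 0.412) for WT liver over CAR-KO liver. Whether its probe lies in the deleted part of the gene is not given in the sources used here. Cyp2b10, the classic CAR target, was 4.93-fold and 3.72-fold higher in WT tumour and in WT liver than in CAR-KO liver. The 4 hepatocyte markers on the array under a matched symbol (Ttr, Apoa1, Asgr1 and Hnf4a) each had a channel or more well above background.

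Set against CAR-KO liver, WT tumour had IGF axis genes that moved both ways, within the ligands as well. These RNAs differ in tissue and, as the tumour is taken to be wild-type, also in CAR genotype. This comparison cannot tell these differences apart. The fetal ligand Igf2, the IGF2 receptor Igf2r and the binding protein Igfbp1 rose 4.09-fold, 3.46-fold and 4.21-fold, while the postnatal ligand Igf1 fell to 0.313 of its CAR-KO liver level. So 3 of 10 members rose and 1 fell, where 2.53% and 0.839% of the 20744 probes tested were called higher and lower (3.36% together). The members were chosen with earlier results of these data known, and whether the axis stands out from other genes was not tested. The median log2 ratio of the 10 members was 0.04, beside -0.01 over all probes tested, since the members moved in both directions. By unadjusted p under 0.05 the count was 5 of 10, the fifth being Igfbp2, and 23.4% of all probes passed that threshold. A probe was called at a limma adjusted p under 0.05 over all probes.

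The stretch before the transcription start of the 4 genes that changed is shown because their transcripts moved in the tumour. The array, with 1 probe a gene, does not tell which annotated start was used. The sequences are RefSeq's (GRCm38.p6), the 250 bases upstream of the annotated start, written 5′ to 3′ on the gene's strand, at chr11:7197537-7197786 (plus strand) for Igfbp1, chr7:142657497-142657746 (minus strand) for the most downstream of the 4 annotated starts of Igf2, chr17:12769707-12769956 (minus strand) for Igf2r and chr10:87860861-87861110 (plus strand) for Igf1. Capitals mark matches to CAAAACA, the core of the insulin response element bound by FoxO factors, AGGTCA, the core bound by many nuclear receptors, TTCNNNGAA, the STAT site, and TATAAA, the TATA box, each searched on both strands.
Igfbp1: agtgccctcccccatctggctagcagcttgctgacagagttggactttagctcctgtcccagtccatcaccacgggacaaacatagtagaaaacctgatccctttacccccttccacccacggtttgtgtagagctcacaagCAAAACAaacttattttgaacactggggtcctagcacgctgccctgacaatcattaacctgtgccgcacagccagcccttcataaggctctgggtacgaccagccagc
Igf2: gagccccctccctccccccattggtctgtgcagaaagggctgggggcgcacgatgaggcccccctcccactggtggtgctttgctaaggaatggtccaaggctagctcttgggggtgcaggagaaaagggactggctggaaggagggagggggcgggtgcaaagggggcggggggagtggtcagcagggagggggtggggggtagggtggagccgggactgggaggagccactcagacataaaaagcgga
Igf2r: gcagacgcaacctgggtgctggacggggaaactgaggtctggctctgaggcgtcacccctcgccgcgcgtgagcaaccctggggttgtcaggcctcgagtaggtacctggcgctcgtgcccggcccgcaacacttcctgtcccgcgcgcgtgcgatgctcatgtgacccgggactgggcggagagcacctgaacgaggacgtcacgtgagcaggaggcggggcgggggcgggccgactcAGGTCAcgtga
Igf1: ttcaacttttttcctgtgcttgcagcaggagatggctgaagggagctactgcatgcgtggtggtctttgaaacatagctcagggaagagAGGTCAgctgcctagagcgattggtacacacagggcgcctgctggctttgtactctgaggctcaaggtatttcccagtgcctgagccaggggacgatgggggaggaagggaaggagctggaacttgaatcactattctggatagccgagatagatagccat
The Igfbp1 window held 1 CAAAACA, beginning 108 bases before the start, a motif present in 5.56% of the 32851 mouse windows of this length. It was the only window with this motif among the 15 windows of the 9 members with an entry. AGGTCA stood 161 bases before the Igf1 start and 11 bases before the Igf2r start, and on the opposite strand 86 bases before the Igf1r start and 13 bases before an Igfals start, and 14.0% of all windows held it. The printed Igf2 window had none of the 4 motifs, and AGGTCA was found 234 bases before the most upstream Igf2 start, on the opposite strand. TTCNNNGAA was found in 2 Igfals windows and in no other member's window (7.02% of all windows), and TATAAA in the Igfbp4 window alone (12.4% of all windows). The Igf2r window was rich in CpG, with 27 CpG dinucleotides and 69.2% GC. The printed Igf2 window had 6 CpG and 66.0% GC, the Igfbp1 window 5 CpG and 53.2% GC, and the Igf1 window 5 CpG and 52.8% GC. Medians over all windows were 6 CpG and 52.4% GC. CpG richness was not particular to Igf2r, since the windows of the uncalled Igf1r and Igfbp3 held 42 and 32 CpG, at 77.6% and 73.2% GC. These matches describe letters in a window and are not measurements of binding.

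Igf2, the fetal growth ligand, was dim in every liver RNA and clearly brighter in WT tumour than in CAR-KO liver on the same arrays. Its processed signal, the scanner software's background-subtracted and dye-normalized intensity, was 1074 in WT tumour against 167 in CAR-KO liver on array 1, and 2976 in WT tumour against 303 in CAR-KO liver on array 2. In the WT liver pair it was 466 in WT liver against 115 in CAR-KO liver on array 1, and 185 in WT liver against 89 in CAR-KO liver on array 2. By processed signal WT tumour was the brighter channel on both of its arrays, under either dye, and so was WT liver on both of its own. On array 2 of the WT liver pair the unprocessed scanner signal was 98 in WT liver (Cy5) against 157 in CAR-KO liver (Cy3). The order on that array thus rests on the software's processing of dim spots. In the pair without any wild-type RNA, CAR-KO liver with PB had 189 and 218, against 174 and 285 with DEN alone, with the order reversed between the arrays.

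After background correction and loess normalization, the Igf2 log2 ratio was 1.70 and 2.37 on the 2 arrays of WT tumour over CAR-KO liver. The fitted ratio was 2.03 ± 0.19 (SE, n = 2 arrays, limma adjusted p = 0.00247), the 51st highest of the 20744 probes tested. In WT liver over CAR-KO liver the arrays gave 0.87 and 0.21, and the fitted ratio was 0.54 ± 0.19 without a call (limma adjusted p = 1.0). PB over DEN alone in CAR-KO liver gave -0.05, with a 95% interval from -0.51 to 0.40. The size of the tumour ratio depends on how a dim spot is corrected: it was 1.15 without background subtraction, 2.59 with a normexp offset of 16 in place of 50, and 2.99 from the processed signals, where the adjusted p was 0.122.

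Igf1, the ligand that the postnatal liver exports, ran the other way. Its processed signal was 6006 in WT tumour against 17146 in CAR-KO liver on array 1, and 9655 in WT tumour against 36372 in CAR-KO liver on array 2. In the WT liver pair it was 13945 in WT liver against 22855 in CAR-KO liver on array 1, and 16118 in WT liver against 22510 in CAR-KO liver on array 2. CAR-KO liver was thus the brighter channel on all 4 of these arrays. The log2 ratio in WT tumour over CAR-KO liver was -1.48 and -1.87 on the 2 arrays and fell by 1.68 on the log2 scale in the fit (SE 0.19, n = 2 arrays, limma adjusted p = 0.0049), the 23rd lowest of all probes tested. WT liver over CAR-KO liver gave -0.69 and -0.48, with a fitted -0.59 ± 0.19 that was not called (limma adjusted p = 1.0). In CAR-KO liver the arrays disagreed on PB over DEN alone (0.27 and -0.81), and the processed signals were 36626 and 22083 with PB against 30103 and 37772 with DEN alone.

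**Figure D1:**
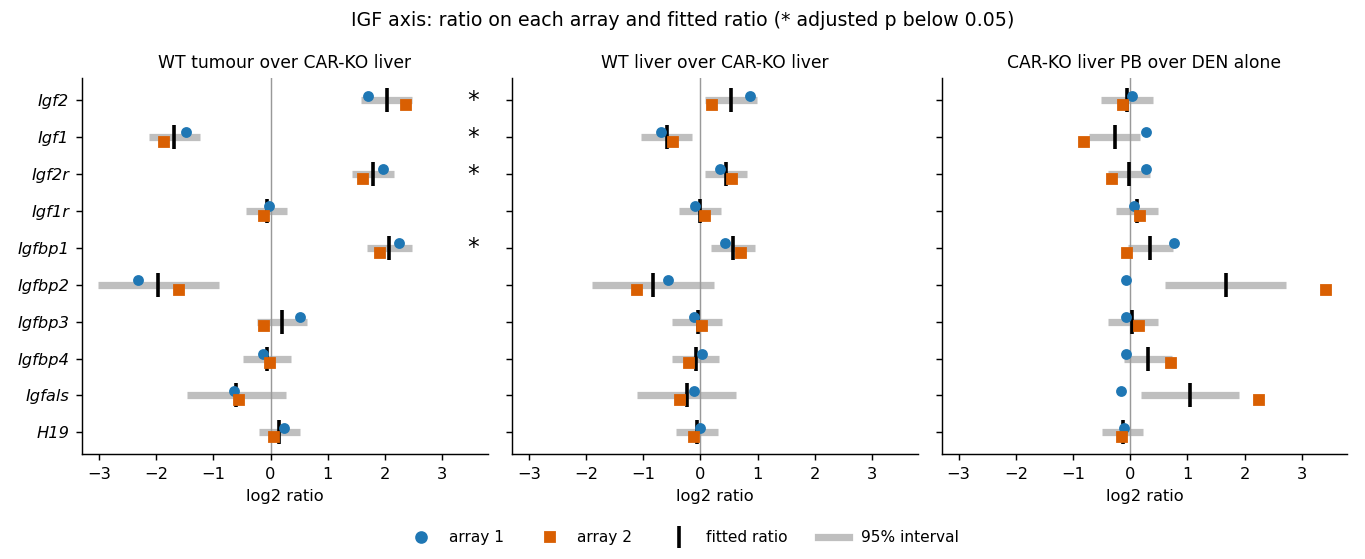
Log2 ratio of the 10 IGF axis members on each array (circles, array 1, and squares, array 2, of a pair) with the fitted ratio (black bar) and its 95% interval (grey), for WT tumour over CAR-KO liver, WT liver over CAR-KO liver and PB over DEN alone in CAR-KO liver. Both arrays put Igf2, Igf2r and Igfbp1 above 0 and Igf1 and Igfbp2 below 0 in WT tumour, whereas the 2 arrays of PB over DEN alone stood 3.50 apart for Igfbp2 and 2.41 apart for Igfals.

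Igf2r, the receptor that clears IGF2, had a processed signal of 5486 in WT tumour against 1232 in CAR-KO liver on array 1, and of 18904 in WT tumour against 5965 in CAR-KO liver on array 2. In the WT liver pair it was 2276 in WT liver against 1677 in CAR-KO liver on array 1, and 2690 in WT liver against 1737 in CAR-KO liver on array 2. The wild-type RNA was the brighter channel on all 4 arrays, by a wider margin in the tumour pair. The log2 ratios were 1.96 and 1.62 for WT tumour over CAR-KO liver, with a fitted 1.79 ± 0.16 (SE, n = 2 arrays, limma adjusted p = 0.00194), and 0.35 and 0.55 in WT liver over CAR-KO liver, with a fitted 0.45 ± 0.16 (limma adjusted p = 1.0). PB over DEN alone in CAR-KO liver gave 0.27 and -0.31, on either side of 0.

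Igf1r, the signalling receptor, was measured on every array without a call in any comparison. Its log2 ratio was -0.02 and -0.12 for WT tumour over CAR-KO liver, -0.09 and 0.08 in WT liver over CAR-KO liver, and 0.06 and 0.17 for PB over DEN alone in CAR-KO liver. The 95% interval in WT tumour over CAR-KO liver ran from -0.43 to 0.29, the range of ratios compatible with these arrays. The interval is not a limit of detection, since a gene such as Igfbpl1 at -0.97 was not called in that comparison either. The processed signal of Igf1r was 899 in WT tumour against 820 in CAR-KO liver on array 1, and 1295 in WT tumour against 1474 in CAR-KO liver on array 2.

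Igfbp1, the binding protein of fasted liver whose transcription insulin represses, had a tumour ratio close to that of Igf2 in the reported setting. Over 15 alternative settings Igfbp1 ran from 1.94 to 2.69, where the dim Igf2 ran from 1.15 to 2.99. The processed signal of Igfbp1 was 15286 in WT tumour against 3097 in CAR-KO liver on array 1, and 40046 in WT tumour against 10468 in CAR-KO liver on array 2. The WT liver pair gave 5275 in WT liver against 3792 in CAR-KO liver on array 1, and 6392 in WT liver against 3786 in CAR-KO liver on array 2. As with Igf2 and Igf2r, both wild-type RNAs had a higher processed signal than CAR-KO liver on every array. The log2 ratios of 2.24 and 1.91 for WT tumour over CAR-KO liver gave a fitted 2.07 ± 0.17 (SE, n = 2 arrays, limma adjusted p = 0.00148), the 47th highest of all probes. WT liver over CAR-KO liver gave 0.43 and 0.71, with a fitted 0.57 ± 0.17 (limma adjusted p = 1.0). With PB, CAR-KO liver had processed signals of 5087 and 4253, against 2855 and 4459 with DEN alone, and log2 ratios of 0.76 and -0.05.

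Igfbp2, another binding protein made by hepatocytes, had processed signals of 2235 in WT tumour against 12012 in CAR-KO liver on array 1, and of 17169 in WT tumour against 52841 in CAR-KO liver on array 2. The log2 ratios were -2.31 and -1.60, and the fitted -1.96 ± 0.45 was the 11th lowest of all probes tested, yet it missed the threshold (limma adjusted p = 0.0686). In WT liver over CAR-KO liver the arrays gave -0.56 and -1.10 (fitted -0.83 ± 0.45, limma adjusted p = 1.0). The wide error of this probe went with a disagreement between the arrays of the third pair. On array 2 of that pair CAR-KO liver with DEN alone had a processed signal of 2092, against 27235 with PB, whereas array 1 had 19863 with PB against 21025 with DEN alone. The log2 ratios of PB over DEN alone were -0.08 and 3.42, a gap of 3.50 that 0.0774% of probes matched or exceeded. With either array of that pair left out, the tumour ratio of Igfbp2 was called lower. The pair's disagreement leaves the fit whichever array is dropped, so this does not show which array was at odds. By design the tumour ratio stayed at -1.96. It was called in 6 of 15 alternative settings in all.

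Igfals, the subunit that joins IGF1 and IGFBP3 in the large complex of the blood, showed the same disagreement on the same array. CAR-KO liver with DEN alone had a processed signal of 814 on array 2, against 5534 with PB, while array 1 had 5783 with PB against 6529 with DEN alone. The log2 ratios were -0.16 and 2.26, a gap of 2.41 that 0.368% of probes matched or exceeded, and the mean of 1.05 ± 0.37 was not called (limma adjusted p = 1.0). Its ratios for WT tumour over CAR-KO liver were -0.64 and -0.55 (fitted -0.60 ± 0.37, limma adjusted p = 0.362). Apoa1, 1 of the 4 hepatocyte markers, had log2 ratios of -0.40 and 2.79 for PB over DEN alone. Its mean of 1.19 ± 0.38 was also not called. The other hepatocyte markers Ttr, Asgr1 and Hnf4a had fitted ratios of -0.07, 0.29 and -0.04. No cause of the gaps between the arrays was tested.

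**Figure D2:**
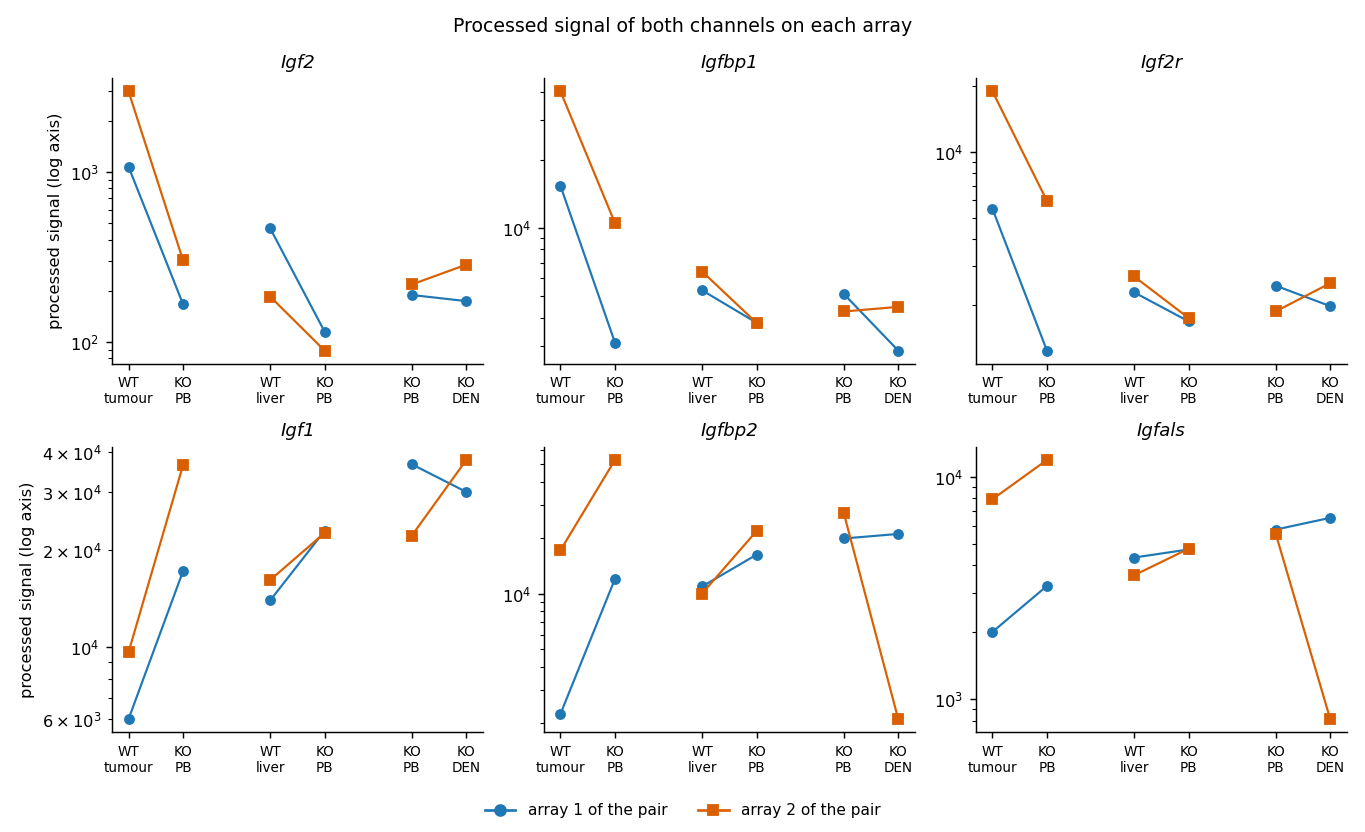
Processed signal (log axis) of both channels on each array for 6 IGF axis members, with a line joining the 2 RNAs of an array (circles, array 1, and squares, array 2, of a pair; KO PB and KO DEN are CAR-KO liver with PB and with DEN alone). The lines of Igf2, Igfbp1 and Igf2r run down from WT tumour and WT liver to CAR-KO liver on every array and those of Igf1 and Igfbp2 run up, while Igfbp2 and Igfals fall to 2092 and 814 in 1 channel of the DEN-alone RNA.

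Igfbp3, the main IGF carrier of the blood, and Igfbp4, a binding protein that restrains IGF action, were not called in any comparison. Igfbp3 had log2 ratios of 0.51 and -0.11 for WT tumour over CAR-KO liver, with a 95% interval from -0.23 to 0.63, and its processed signals lay between 239 and 789 over all 12 channels. Igfbp4 had -0.13 and -0.01 for WT tumour over CAR-KO liver, with an interval from -0.48 to 0.35. In RefSeq's gene order Igfbp3 lies next to Igfbp1 with 0 genes between them. In WT tumour over CAR-KO liver Igfbp1 stood at 2.07 and Igfbp3 at 0.20.

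H19, a noncoding RNA transcribed from the maternal chromosome, shares enhancers with the paternally expressed Igf2 in the mouse, and RefSeq lists no protein-coding gene between them. It was not called. Its processed signal was 1945 in WT tumour against 1561 in CAR-KO liver on array 1, and 9982 in WT tumour against 9657 in CAR-KO liver on array 2. The log2 ratios were 0.24 and 0.06, with a fitted 0.15 ± 0.15 and a 95% interval from -0.21 to 0.51 (limma adjusted p = 0.578), beside the 2.03 of Igf2. The difference between the 2 probes was not itself tested. Under median centring in place of loess H19 was 0.55 in WT tumour over CAR-KO liver and called (limma adjusted p = 0.0411), a setting in which 20.0% of all probes were called. A second probe whose description mentions an H19 clone was not counted as a member, since neither its symbol nor its accession names H19. It was well above background in 6 of 12 channels, with log2 ratios of 0.03, -0.12 and 0.23 in the 3 direct comparisons.

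**Figure D3:**
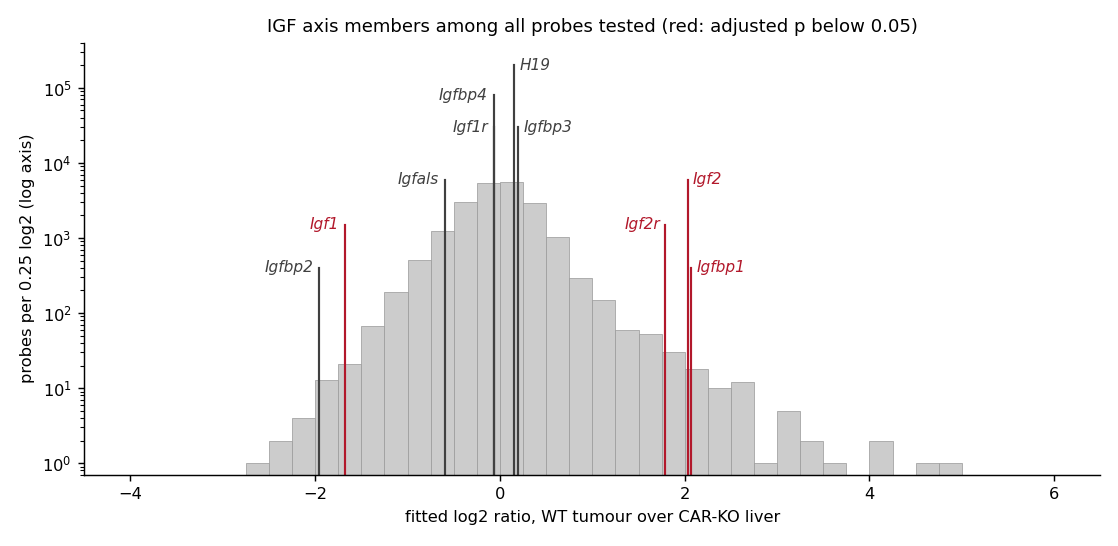
Fitted log2 ratio of WT tumour over CAR-KO liver for all probes tested (grey histogram, probes per 0.25 log2, log axis), with a vertical line at each IGF axis member. Igf2r, Igf2 and Igfbp1 stand in the upper tail at 1.79, 2.03 and 2.07, Igf1 and Igfbp2 in the lower tail at -1.68 and -1.96, and the other 5 between -0.60 and 0.20. The heights of the lines carry no value.

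The calls in the tumour pair drew on the spread shared by all 6 arrays. Fitted on the 2 arrays of the pair alone, 1 member was still called, Igfbp1, with an adjusted p of 0.0435, while that of Igf2 was 0.0522, and 0.299% of all probes were called. From the processed signals 0 members were called, as were 0 of all probes, with adjusted p between 0.122 and 0.154 for the 4 genes. The software's own per-spot error model, which judges 1 spot on 1 array, is in the scanner output that the authors deposited. At p under 0.01 on both arrays this model marked Igf2, Igf2r and Igfbp1 as higher and Igf1, Igfbp2 and Igfals as lower in WT tumour over CAR-KO liver. By this rule 7.76% of probes were higher and 3.26% lower.

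WT liver over CAR-KO liver had 0 of 10 members called, where 0.101% of the 20743 probes tested were called. An unadjusted p under 0.05, which 2.27% of all probes had, was found for 4 members: Igf2 at 0.0259, Igf1 at 0.0168, Igfbp1 at 0.0104 and Igf2r at 0.0232. These are the 4 genes called in WT tumour over CAR-KO liver, with the same signs, but both ratios share the CAR-KO liver RNA. A difference of both wild-type RNAs and a difference of that RNA alone cannot be told apart. In the authors' deposited scanner output, the error model's p under 0.01 on both arrays marked Igfbp1 and Igf2r as higher and Igf1 and Igfbp2 as lower, among 1.59% and 0.323% of all probes. The other 5 members had log2 ratios between -0.24 and -0.01, beside -0.83 for Igfbp2.

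PB over DEN alone in CAR-KO liver had 0 of 10 members called, as 0.0% of probes were called, by limma. At an unadjusted p under 0.05 it had 2 members, Igfbp2 and Igfals, where 2.72% of all probes did. These are the 2 members whose arrays stood furthest apart in this pair. Only 2 of 10 members, H19 and Igf1r, had the same sign on both arrays, against 9 of 10 in WT tumour over CAR-KO liver and 7 of 10 in WT liver over CAR-KO liver. Over all probes the same share was 36.8%, 59.1% and 42.9% in these 3 comparisons.

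WT tumour over WT liver, the indirect comparison, had 0 of 10 members called, and 0.0% of probes. The fitted log2 ratios were 1.50 ± 0.24 for Igfbp1, 1.49 ± 0.27 for Igf2, 1.34 ± 0.22 for Igf2r and -1.09 ± 0.27 for Igf1, with limma adjusted p of 0.207, 0.248, 0.213 and 0.376. Their 95% intervals stayed on one side of 0, running from 0.95 to 2.06, from 0.85 to 2.13, from 0.82 to 1.86 and from -1.72 to -0.46. These 4 had an unadjusted p under 0.05, as did 8.37% of all probes. By rank Igfbp1, Igf2 and Igf2r were 27th, 32nd and 46th from the top of 20743 probes. With median centring in place of loess 2 members were called (Igf2r and Igfbp1), with 0.227% of all probes, at 1.91 for Igf2r and 2.21 for Igfbp1, while the Igf1 ratio was -0.31 (limma adjusted p = 0.459). Without background subtraction the Igf2 ratio was 0.76 (limma adjusted p = 0.567). The count also rests on the tumour arrays: without array 1 of the tumour pair 3 members were called (Igf2, Igf2r and Igfbp1) with 0.935% of all probes, and without array 2, the array of high background, 4 were called (the same 3 and Igf1) with 10.4% of all probes. Tumour and liver are mixtures of cells, and in such RNA fewer cells of a type and less RNA per cell cannot be told apart.

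The wider pathway was read from a list of 69 genes, of which 56 were tested, 11 had no matched symbol on the array and 2 were too dim. In WT tumour over CAR-KO liver 1 of the 56 rose and 2 fell, close to the background share of 3.36%, and the median log2 ratio was 0.05. The count was 14 without array 2 of the tumour pair, where 22.7% of all probes were called. In the other 3 comparisons 0 of the 56 were called.

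The gene that rose was Dlk1, an imprinted fetal growth gene and Notch ligand relative, at 1.26 and 1.39 on the 2 arrays (fitted 1.32 ± 0.16, limma adjusted p = 0.00682). Its ratio in WT liver over CAR-KO liver was -0.01 ± 0.16. The other 12 imprinted growth genes and regulators tested, among them Cdkn1c (0.33), the growth inhibitor of the cell cycle, Nnat (-0.28) and Trim28 (0.27), a corepressor that protects imprints, lay between -0.28 and 0.33 in the tumour without a call. The 2 Igf2 mRNA binding proteins tested, Igf2bp1 and Igf2bp3, had 0.11 and 0.04.

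The genes that fell both make glucose. Pck1, which encodes the enzyme that commits carbon to gluconeogenesis, had -1.65 and -1.94 (fitted -1.79 ± 0.16, limma adjusted p = 0.00194), and G6pc, the catalytic subunit of glucose-6-phosphatase, had -1.11 and -0.94 (fitted -1.02 ± 0.19, limma adjusted p = 0.0364). Both are repressed by insulin through FoxO1, as Igfbp1 is, and Igfbp1 stood at 2.07 in the same RNA. Ppargc1a, a coactivator of fasting genes, had -0.50 without a call.

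**Figure D4:**
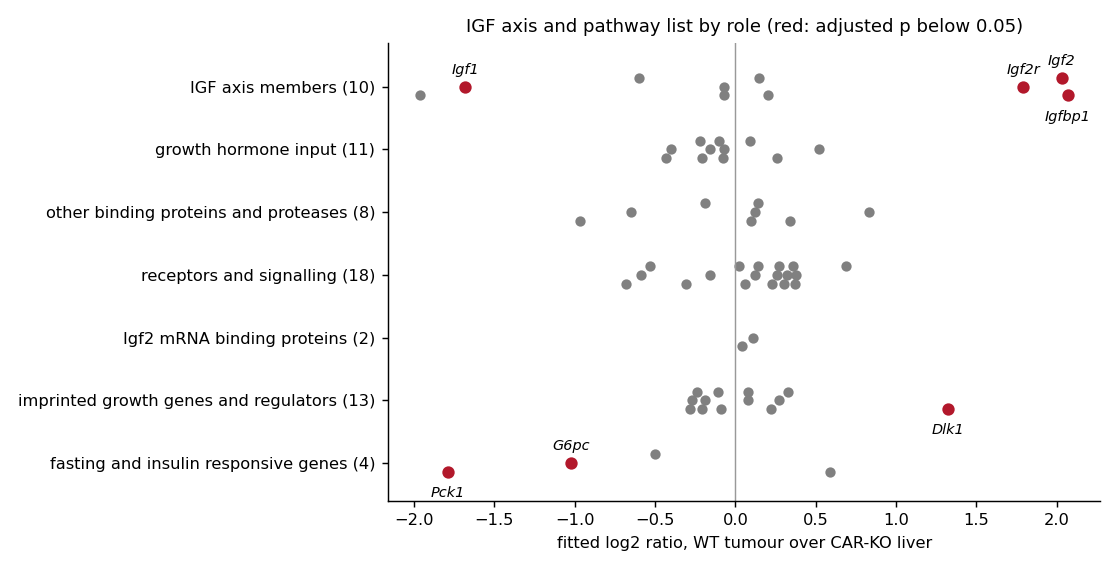
Fitted log2 ratio of WT tumour over CAR-KO liver for the 10 IGF axis members and the 56 tested pathway genes, in rows by role with the number tested in brackets, and red for those called. Apart from Igf2, Igf2r, Igfbp1 and Igf1, the called genes were Dlk1 at 1.32, Pck1 at -1.79 and G6pc at -1.02.

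None of the 11 genes of growth hormone input was called in WT tumour over CAR-KO liver, where their median was -0.10 and 2 had an unadjusted p under 0.05. Socs2, a feedback inhibitor that growth hormone induces, had 0.52, Socs1, a related inhibitor, -0.43, the growth hormone receptor Ghr -0.40, and Jak2, the kinase bound to that receptor, 0.26. Of the 8 other binding proteins and proteases tested, the widest ratios were those of Igfbpl1 (-0.97), Ctsd (0.83), a lysosomal protease, Stc1 (-0.65), a stanniocalcin, and Igfbp6 (0.34), none with a call. The 18 receptors and signalling genes had a median of 0.18 and no call, with Eif4ebp1 (0.69), a brake on translation that mTOR releases, Sos1 (-0.68) and Shc1 (-0.59), which link receptors to Ras, and Akt2 (-0.53), a kinase of insulin signalling, at the extremes. The 2 arrays of Sos1 and Akt2 disagreed in sign.

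The genes whose 3 direct log2 ratios stood closest to those of Igf2, among 7765 other genes well above background on all arrays, were Csrp2 (2.04, 0.65 and -0.03 for WT tumour over CAR-KO liver, WT liver over CAR-KO liver and PB over DEN alone), Nxpe2, S100a10, Akr1b7 and Ifngr1, with a root mean square difference of 0.07 to 0.14 over the 3 comparisons. Closest to Igfbp1 were Pdgfa (1.90, 0.84 and 0.21), a ligand of the platelet-derived growth factor receptor, Nr1i3 itself (1.81, 0.79 and 0.19) and Isyna1 (1.76, 0.38 and 0.24), an enzyme of inositol synthesis, at 0.20 to 0.22. The 3 ratios share an RNA and are few, and the order describes these arrays only.

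Some markers of other cells were called in the tumour pair. Of 4 skeletal muscle markers tested, 3 were called lower in WT tumour over CAR-KO liver (Tnnc2 at -1.83, Mylpf at -1.25 and Tnni2 at -1.01), 1 was called lower in WT liver over CAR-KO liver (Tnnc2 at -1.78), and all 4 had a positive ratio for PB over DEN alone in CAR-KO liver. Their summed processed signal was 1172 to 2793 in WT tumour, 1151 to 1568 in WT liver, 2770 to 11417 in CAR-KO liver with PB and 1448 to 1866 with DEN alone. Such sums span arrays of different background, that of the tumour pair included, and the ranges are given for each RNA without a comparison between arrays. Krt19, 1 of 5 cholangiocyte markers, rose by 1.13 on the log2 scale in WT tumour over CAR-KO liver. Dcn, 1 of 6 stellate cell and fibroblast markers, fell by 1.34 there, and Hba-a1, 1 of 2 erythroid markers, fell by 1.09. The rest of these lists did not all follow. The cholangiocyte list had 3 positive and 2 negative ratios (median 0.03). The stellate cell and fibroblast list had 2 positive and 4 negative ratios (median -0.18). The summed processed signal in WT tumour and in CAR-KO liver with PB was 2915 to 7168 and 2541 to 7952 for cholangiocyte markers, 5503 to 17114 and 7124 to 23811 for stellate cell and fibroblast markers, and 19908 to 81165 and 42405 to 171002 for erythroid markers. No marker probe of these lists was below background in all channels. None of the 4 hepatocyte, 8 endothelial, 5 macrophage, 6 lymphocyte or 2 pancreatic acinus markers tested was called in any comparison. The part of these cells in the IGF axis ratios was not tested.

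**Figure D5:**
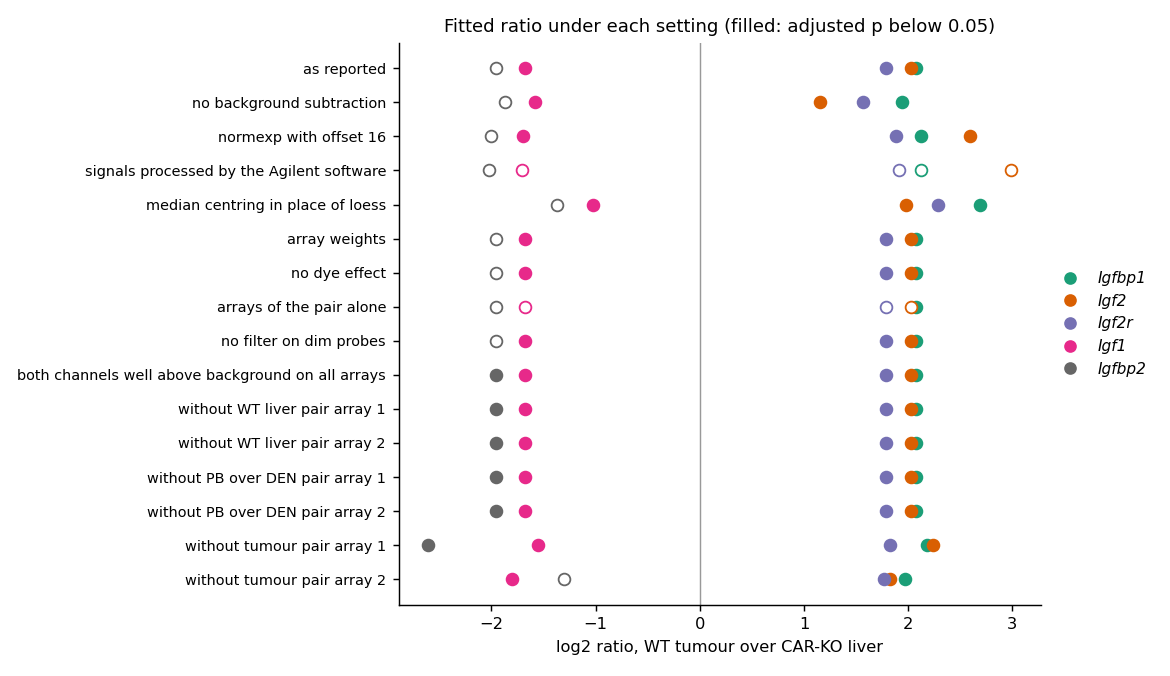
Fitted log2 ratio of WT tumour over CAR-KO liver for 5 IGF axis members under the reported setting (top) and 15 alternatives, filled where the adjusted p was below 0.05. Every ratio kept its sign, though only changes of background correction or normalization, or leaving out a tumour array, could move a ratio. Igf2 ran from 1.15 to 2.99, Igfbp1 from 1.94 to 2.69, Igf2r from 1.57 to 2.29, Igf1 from -1.80 to -1.03 and Igfbp2 from -2.61 to -1.30.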

How the data were processed

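RNA of the 4 sources was measured on 6 Agilent 2-colour arrays in 3 dye-swapped pairs. Per the file headers, the deposited scanner files hold mean and background intensity values per spot, processed intensity (Agilent Feature Extraction's background subtraction and dye normalization, run by the authors), a log10 ratio of Cy5 over Cy3 and a p-value of the software's error model. Deposited flag columns, units of other kinds, mark control, saturated and background-level spots. The deposited value table equals the log10 ratio, with a largest difference of 0. Per the file headers, 5 arrays were read with version 7.1.1, array 2 of the tumour pair with 7.5.1; the submitters' processing notes give 7.5. The genome build is not given in the sources used here.

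Of 22393 spots, 1075 controls were left out and spots of a probe averaged. Mean signals were background-corrected (normexp, offset 50), loess-normalized within arrays and fitted with limma 3.58.1 in R 4.3.3 on all 6 arrays. The fit had 3 coefficients for the RNA sources and a dye effect, leaving 2 residual degrees of freedom and 5.48 prior ones. From it 4 comparisons were tested as contrasts. Tests covered the 20744 of 20868 probes with a channel well above background on 2 or more arrays. Calls are Benjamini-Hochberg adjusted p under 0.05, 2-sided; the fit was tested on simulated data. The number of arrays limits the precision. Symbols came from RefSeq accessions (8947 probes), descriptions (700) or words (2), and 11219 probes had none. A gene was represented by its brightest probe. All members were named in all comparisons; pathway genes up to 4 per role, called ones first, then by size of ratio in WT tumour over CAR-KO liver; likeness took 5 genes for Igf2 and 3 for Igfbp1. Members and lists were chosen with earlier results of these data known. Alternatives covered background correction, normalization, array weights, dye effect, arrays fitted, dim-probe filter and each array left out. The values of 1 gene of the pathway list are not reported here.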

Additional observations from a re-analysis of the deposited data

How the results depend on the processing

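For WT tumour over CAR-KO liver, the 4 called members kept their sign under all 15 alternatives, but most of these could not change it. With both arrays of the pair, the fitted ratio is the mean of their turned ratios. Only background correction, normalization and leaving out a tumour array could therefore move it, and the other alternatives could change only the adjusted p. Of the 15 alternatives, 13 called Igf2, Igf1 and Igf2r, while 14 called Igfbp1. The count of members called was 0 from the processed signals and 1 on the pair alone, and 4 to 5 with each array left out, the fifth being Igfbp2. The pathway count of 3 became 0 from the processed signals and 8 with median centring, and ran from 2 to 14 with each array left out. In WT tumour over WT liver the member count of 0 became 2 with median centring (Igf2r and Igfbp1) and ran from 0 to 4 with each array left out, and the pathway count from 0 to 5. In WT liver over CAR-KO liver and PB over DEN alone, 0 members and 0 pathway genes were called under every alternative run. The cause of these shifts was not tested. Each member has 1 probe, so averaging probes changed nothing. No analysis paired by animal was possible because the labels do not identify the animals behind an RNA. The 2 arrays a pair, a dim Igf2 spot and 2 residual degrees of freedom limit what the tests could call.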
